A study of Mus musculus with 5 samples.

Results

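Ribosome biogenesis genes were examined in dendritic cells with and without the transcription factor Etv3. The set holds 42 of the 27678 genes in the deposited table. They encode nucleolar assembly factors, small nucleolar ribonucleoprotein (snoRNP) subunits and RNA polymerase I factors. They were chosen by gene symbol from general knowledge of the pathway, with earlier results of these data known. All 42 were present and all 42 passed the filter on low values described below. The study sequenced RNA from 2 libraries of Etv3+/+ cells and 3 libraries of Etv3-/- cells, from mice whose strain and age the labels do not give. Marrow of both genotypes was grown for 6 days in GM-CSF (20 ng/ml) together with the cytokine IL-4 (5 ng/ml), after which live CD115- cells with CD11c, intermediate CD11b and high MHC class II were sorted as dendritic cells. The labels give the genotype of the mice and name no Cre or conditional allele. Nothing in them ties a replicate to a mouse of its own, so p-values reflect the variation among these libraries, which may be technical.

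Ribosomes are assembled in the nucleolus. RNA polymerase I transcribes the long ribosomal RNA precursor there, snoRNPs modify and help fold it, and a succession of assembly factors cuts and packages it into the small (40S) and large (60S) subunits before export to the cytoplasm. Cells that grow or divide make many ribosomes, and MYC is a well-known activator of these genes, whereas mature dendritic cells divide little and turn to antigen presentation.

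The targeted gene was examined first. Etv3 stood at 23050 and 25447 in Etv3+/+ and at 18691, 20416 and 22856 in Etv3-/-, in normalized counts (read counts divided by a scaling factor for each library). The groups did not overlap, but the interval of the difference included 0 (log2 fold change -0.23, 95% interval -0.70 to 0.23). The limma adjusted p was 0.567. Exact permutation of the genotype labels, with the smaller tail doubled, gave a two-sided p of 0.2. That is the smallest value this test can give for 2 against 3 libraries. Which exons the mutation removes is not given in the sources used here, so the total over the gene does not check the labels.

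Depth ranged from 42983550 to 68253936 recovered reads per library. The sorted cells carried dendritic cell transcripts in every library, with Ccr7 between 213571 and 290394 and Cd74 between 416476 and 1064650 normalized counts. Of 10 dendritic cell markers, limma and edgeR called Ciita and DESeq2 called Ciita, H2-Aa and H2-Ab1, all higher in Etv3-/-. Their summed share was 2.00% and 2.94% of normalized counts in Etv3+/+ and 4.18% to 5.59% in Etv3-/-. Of 12 macrophage and monocyte markers 3 passed in limma and edgeR, all higher in Etv3-/- (C1qa, C1qb and C1qc), and their summed share was 0.0583% and 0.0635% in Etv3+/+ and 0.106% to 0.138% in Etv3-/-, with Fcgr1 at 0 in both Etv3+/+ libraries and in Etv3-/- replicate 2. DESeq2 called 8 of the 12. Of 20 proliferation markers 0 passed in limma and in edgeR, and DESeq2 called 1, Tyms, lower in Etv3-/-. At an unadjusted limma p under 0.05 there were 5, Tyms, Rrm2, Pcna and Mcm6 lower and Bub1 higher. The log2 fold change was positive for 7 of the 20, 35% against 46.3% of tested genes. The summed share of these markers was 0.0583% and 0.0701% in Etv3+/+ and 0.0527% to 0.0582% in Etv3-/-. Of 6 B cell markers 0 passed in limma and edgeR, with 4 at an unadjusted p under 0.05 and 3 called higher by DESeq2, and their summed share was 0.0028% and 0.0041% in Etv3+/+ and 0.0063% to 0.010% in Etv3-/-. Among markers of neutrophils (9 tested), T and NK cells (4), mast cells and basophils (5) and progenitors (4), 0 passed in limma, edgeR or DESeq2. Of these, 2 T and NK cell markers, Cd3g and Gzma, were lower in Etv3-/- at an unadjusted p under 0.05. Mitochondrial genes took 1.10% to 6.64% of normalized counts, most in Etv3+/+ replicate 2. The part of other cells, proliferation or RNA quality in the results below was not tested.

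No ribosome biogenesis gene passed the test between genotypes, yet many stood somewhat higher in the Etv3-/- libraries. Of the 42 members 0 were called in either direction (limma on log2(normalized count + 1), adjusted p under 0.05), where 1.19% of all 13813 tested genes were called (0.876% higher and 0.319% lower in Etv3-/-). At an unadjusted p under 0.05 there were 6 members, 14.3%, against a background of 18%, so by this measure small p-values were no more frequent in the set than over all genes. On the recovered reads edgeR called 0 members, where it called 1.14% of tested genes (0.825% higher and 0.319% lower). DESeq2 called 4 members, all higher, 9.52% of the set, where it called 8.46% of tested genes in either direction, 4.6% higher and 3.86% lower. The lowest limma adjusted p was 0.0733, for Rrp1b. The 95% interval of the log2 fold change included 0 for 36 members, lay above 0 for 6 and below 0 for 0, and its half-width had a median of 0.63, so for a typical member a change of that size could not be told from none.

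Direction and order of the libraries gave a different view. For 17 of the 42 members, 40.5%, all 3 Etv3-/- values lay above both Etv3+/+ values, where the background was 16.7% of tested genes. For 0 members did all Etv3-/- values lie below, where the background was 19.3%. The log2 fold change was positive for 31 members and negative for 11, so 73.8% were positive against 46.3% of tested genes. The median member stood at a log2 fold change of 0.25, with the middle of the distribution between 0.011 and 0.48, beside a median of -0.06 over all tested genes. Large differences were uncommon, since 4 members differed by more than 1 on the log2 scale, 9.52% against 23.7% of tested genes. These counts describe a list that was chosen with earlier results of these data known, and they were not tested.

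**Figure D1:**
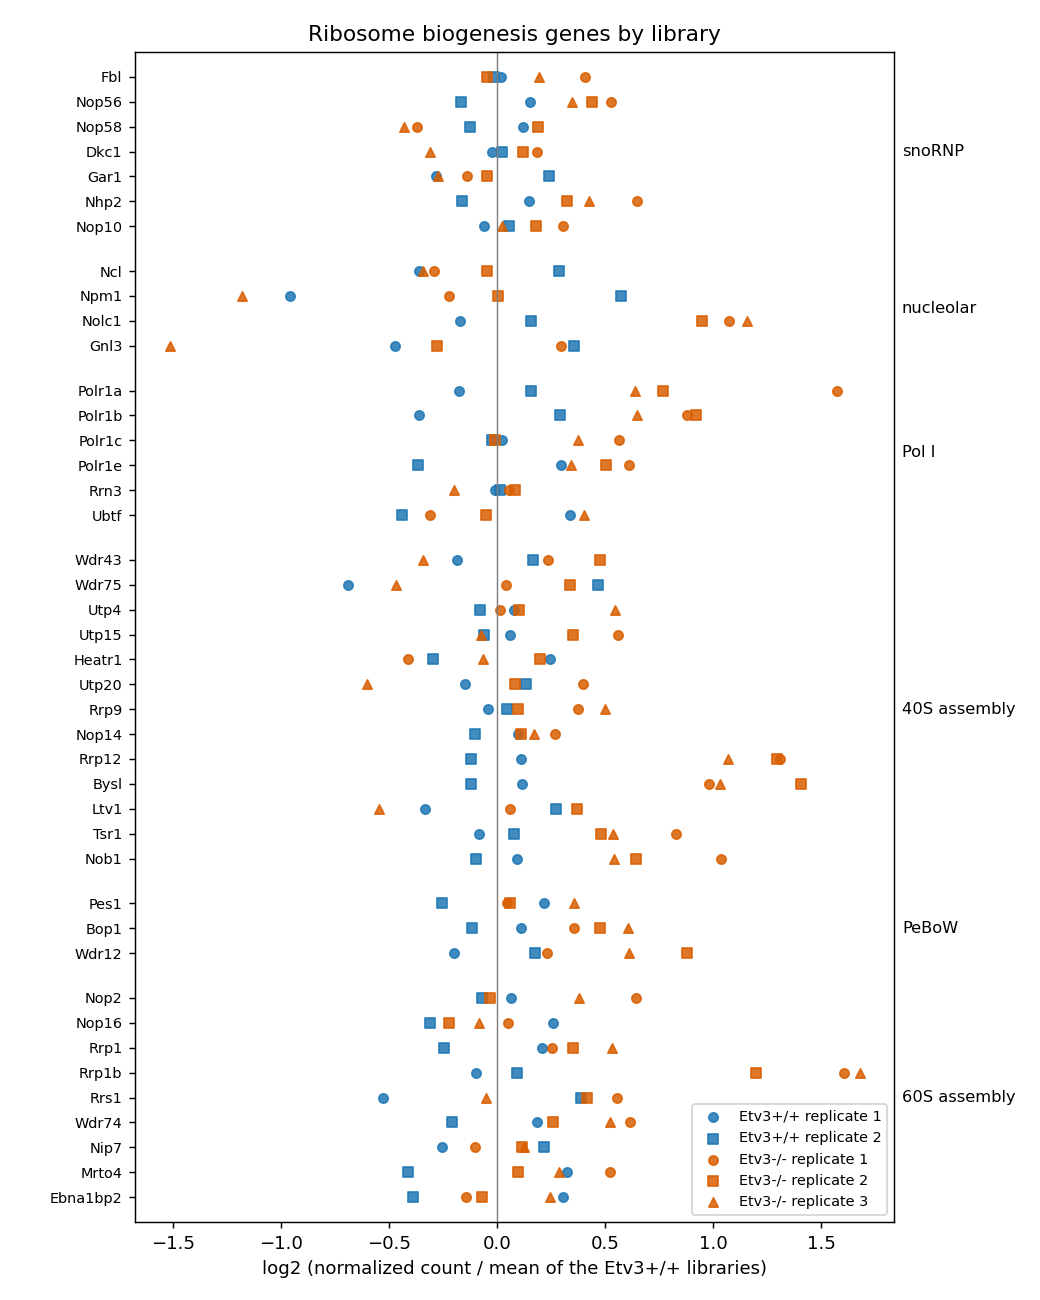
Each row is 1 of the 42 genes and each point 1 library, placed at the log2 ratio of its normalized count to the mean of both Etv3+/+ libraries (horizontal axis); blue marks Etv3+/+, orange Etv3-/-, and the symbol gives the replicate. For Rrp1b, Rrp12, Bysl and Nolc1 the orange points lie well to the right of the blue ones, while Npm1 and Gnl3 spread widely within each genotype.

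The genes with the clearest separation act at different steps of assembly. Rrp1b (chromosome 17, 32036100 to 32062865, GRCm38), a nucleolar protein related to the 60S factor RRP1, stood at 380.3 and 433 normalized counts in Etv3+/+ and at 1237, 934 and 1302 in Etv3-/- replicates 1, 2 and 3. The lowest Etv3-/- value was 2.16 times the highest Etv3+/+ value. The fitted difference was 2.82-fold (95% interval 1.70 to 4.68, limma adjusted p = 0.0733).

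Nolc1 (chromosome 19, 46075863 to 46085530), a phosphoprotein that chaperones snoRNPs in the nucleolus and Cajal bodies, stood at 1036 and 1302 in Etv3+/+ and at 2463, 2256 and 2609 in Etv3-/-. The groups were again apart, by a fitted 2.10-fold (1.43 to 3.08, limma adjusted p = 0.0824). Bysl (chromosome 17, 47599331 to 47611492), which encodes the bystin factor of 40S assembly, stood at 624 and 529.7 against 1139, 1529 and 1177, a fitted 2.21-fold (1.37 to 3.55, limma adjusted p = 0.118). Rrp12 (chromosome 19, 41862851 to 41896173), which acts in processing and export of pre-ribosomal particles, stood at 308 and 262 against 704, 699.7 and 598, a fitted 2.34-fold (1.33 to 4.10, limma adjusted p = 0.140). None of these 4 passed the limma threshold. Their calls depended on the procedure. DESeq2 called all 4 higher (adjusted p = 0.000312 for Rrp1b, 0.00144 for Nolc1, 0.00504 for Bysl and 0.0110 for Rrp12). But with that tool 8.46% of all tested genes were called, 4.6% higher and 3.86% lower. Rrp1b also passed in limma with a stricter filter (adjusted p = 0.0477) and once values were corrected for transcript GC content and length (adjusted p = 0.0441). In the other limma fits and in edgeR none of the 4 was called.

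**Figure D2:**
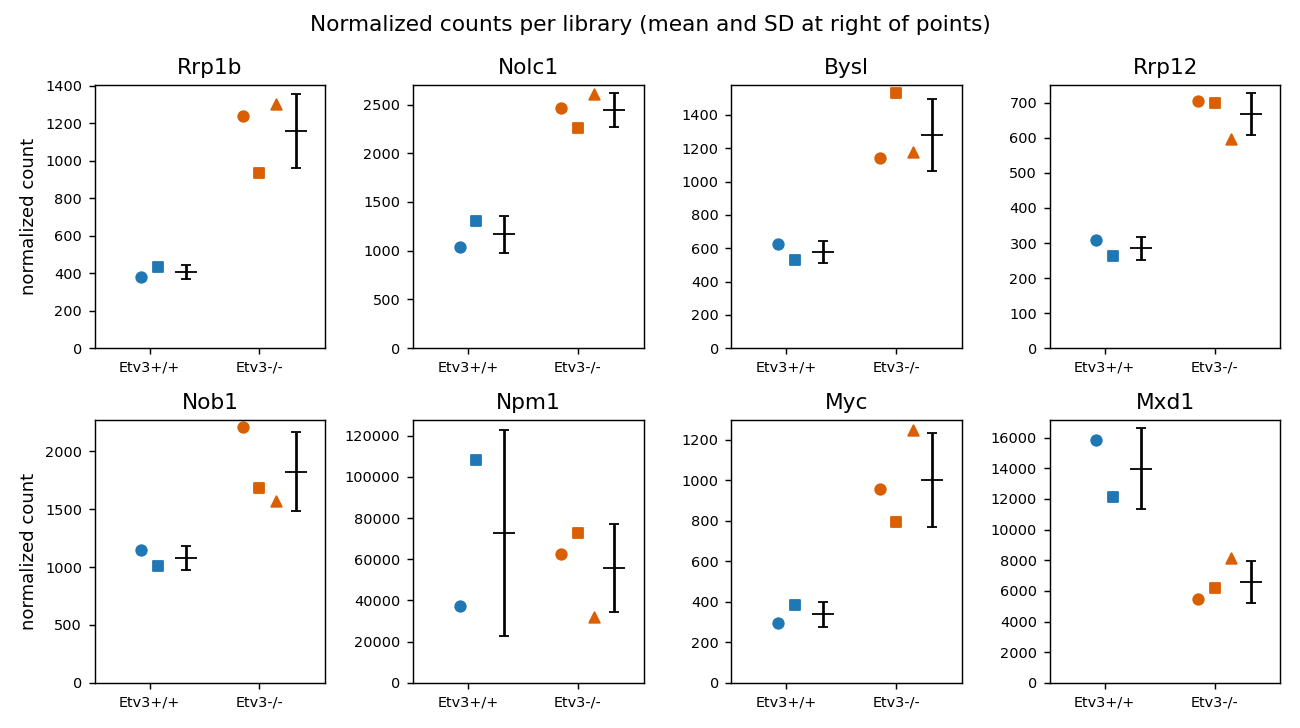
Normalized counts (vertical axes, from 0) of 8 genes in each library, with the mean and SD of each genotype to the right of its points. Rrp1b, Nolc1, Bysl, Rrp12, Nob1 and Myc are higher in every Etv3-/- library, Mxd1 is lower in every one, and the 2 Etv3+/+ values of Npm1, 37432 and 108165, bracket all 3 Etv3-/- values but the lowest.

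The promoters of some of these genes are shown because ETV3 belongs to the ETS family, whose members bind DNA around a GGAA core. RefSeq promoters (GRCm38.p6) from 250 bases before to 50 bases after the transcription start were matched by symbol for 37 members; Bop1, Fbl, Npm1, Rrp12 and Rrs1 were not matched. Each was searched on both strands for CCGGAA, an ETS core, and for CACGTG, the E-box bound by MYC and its partners. Neither motif can overlap the other. The ETS core was found for 18 of 37 members, 48.6%, against 16.7% of 27025 genes with a promoter and 30.5% of the 10631 among them that were tested. The E-box was found for 8 of 37 members, 21.6%, against 8.09% of all genes with a promoter and 11.5% of tested ones. By the order of the libraries, the ETS core was found for 7 of the 15 matched members with all Etv3-/- values above (46.7%) and for 11 of the other 22 (50%). The E-box was found for 1 of those 15 and for 7 of the other 22.

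Sequences upstream of the start are printed for 4 members with all Etv3-/- values above, 5′ to 3′ on the gene's strand, without bases that the annotation places in an exon and with the ETS core in capitals. Nolc1 lies at chr19:46075597-46075846 on the plus strand, with the core close to the start. Bysl lies at chr17:47611493-47611581 on the minus strand, in the 89 bases between its own first exon and an exon of Med20. Tsr1 lies at chr11:74897830-74898070 on the plus strand, with the core near its 3′ end. The searched Tsr1 promoter also held an E-box, which lies outside the printed letters. Rrp1b lies at chr17:32035912-32036099 on the plus strand, and these letters hold neither motif.
Nolc1: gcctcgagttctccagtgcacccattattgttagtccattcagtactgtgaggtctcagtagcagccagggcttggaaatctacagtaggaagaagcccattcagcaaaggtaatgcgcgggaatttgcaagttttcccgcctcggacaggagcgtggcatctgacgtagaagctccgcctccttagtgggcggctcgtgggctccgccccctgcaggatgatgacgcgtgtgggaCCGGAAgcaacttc
Bysl: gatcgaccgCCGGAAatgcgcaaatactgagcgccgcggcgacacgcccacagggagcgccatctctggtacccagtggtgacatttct
Tsr1: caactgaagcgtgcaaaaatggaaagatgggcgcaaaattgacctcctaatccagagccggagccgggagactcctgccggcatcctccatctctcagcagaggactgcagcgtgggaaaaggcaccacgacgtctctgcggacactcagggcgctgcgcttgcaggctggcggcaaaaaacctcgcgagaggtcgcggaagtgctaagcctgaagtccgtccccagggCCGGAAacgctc
Rrp1b: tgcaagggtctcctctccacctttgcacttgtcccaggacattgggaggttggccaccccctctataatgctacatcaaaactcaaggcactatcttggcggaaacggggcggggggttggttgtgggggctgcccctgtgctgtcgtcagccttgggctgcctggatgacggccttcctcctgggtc
A match is a run of letters and not a measured binding site.

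Among RNA polymerase I genes, the large catalytic subunits Polr1a and Polr1b had all Etv3-/- values above, and the initiation factors Rrn3 and Ubtf overlapped. Polr1a (chromosome 6, 71909053 to 71984935), the largest subunit, stood at 222 and 279 normalized counts in Etv3+/+ and at 744, 426 and 390.2 in Etv3-/-, a fitted 2.00-fold (95% interval 0.98 to 4.08, limma adjusted p = 0.290). Polr1b (chromosome 2, 129100995 to 129126594), the other large subunit, stood at 336 and 526 against 792, 815 and 675, a fitted 1.80-fold (1.02 to 3.18, limma adjusted p = 0.263). Etv3-/- replicate 1 was the highest for Polr1a, well above the other two, whereas the Polr1b values were close together. Polr1e, a peripheral subunit, also had all Etv3-/- values above. Polr1c, which RNA polymerases I and III share, overlapped between genotypes, as did Rrn3, which recruits the polymerase to the promoter. Ubtf, the architectural factor that keeps ribosomal genes open, stood at 5187 and 3027 against 3312, 3955 and 5418. The highest and lowest Ubtf values of each genotype lay at similar levels, and the log2 fold change was 0.063 (-0.66 to 0.78). Of the 6 genes 0 passed in limma (1 at an unadjusted p under 0.05), edgeR or DESeq2. All Etv3-/- values lay above for 3, 50%, where the background was 16.7% of tested genes. The median log2 fold change was 0.42.

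Of the 7 snoRNP proteins 2, Nop56 and Nhp2, had all Etv3-/- values above, 28.6%, where the background was 16.7% of tested genes. The other 5 overlapped between genotypes. Of the 7 genes 0 passed in limma (0 at an unadjusted p under 0.05), edgeR or DESeq2. Box C/D particles, which methylate ribosomal RNA, contain the methyltransferase Fbl with Nop56 and Nop58, and box H/ACA particles, which make pseudouridine, contain the pseudouridine synthase Dkc1 with Gar1, Nhp2 and Nop10. Nop56 (chromosome 2, 130274430 to 130279313) stood at 6621 and 5307 normalized counts in Etv3+/+ and at 8580, 8074 and 7591 in Etv3-/-, a log2 fold change of 0.45 (-0.02 to 0.91, limma adjusted p = 0.297). Nhp2 (chromosome 11, 51619735 to 51623714) stood at 3543 and 2861 against 5014, 3999 and 4301, a log2 fold change of 0.47 (-0.03 to 0.98, limma adjusted p = 0.312). Neither passed. Among the overlapping partners in the same particles, Fbl stood at 750.3 and 733 against 984, 718 and 849 (log2 fold change 0.19, -0.51 to 0.88), and the others were Nop58, Dkc1, Gar1 and Nop10. Over the 7 genes the log2 fold change ran from -0.20 to 0.47 with a median of 0.17.

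Among the nucleolar proteins with several roles, Npm1, Ncl and Gnl3 overlapped between genotypes, whereas the groups of Nolc1 were apart. Npm1 (chromosome 11, 33152287 to 33163206), the ribosome export chaperone nucleophosmin, stood at 37432 and 108165 normalized counts in Etv3+/+ and at 62401, 72982 and 32072 in Etv3-/-. The Etv3+/+ libraries differed from each other 2.89-fold, more than the ratio of genotype means of any member, and the log2 fold change was -0.27 (-1.44 to 0.89). Its sign turned with the library left out, from -1.04 without Etv3+/+ replicate 1 to 0.49 without Etv3+/+ replicate 2. Ncl, the abundant nucleolar RNA-binding protein nucleolin, stood at 14903 and 23359 against 15603, 18534 and 15097, and all 3 Etv3-/- values lay between those of Etv3+/+. Gnl3 (chromosome 14, 31012433 to 31019152), the nucleolar GTPase nucleostemin, stood at 1485 and 2635 against 2529, 1700.3 and 719.9, with Etv3-/- replicate 3 lowest of all (log2 fold change -0.44, -1.65 to 0.77). It was 0.068 without that library. Of these 4 genes 0 passed in limma (1 at an unadjusted p under 0.05) or edgeR and 1, Nolc1, in DESeq2. Nolc1 was also the 1 with groups apart, and the median log2 fold change was -0.23. Npm1 dominated the set, holding 21.9% to 51.2% of the members' summed counts. The summed share of all 42 members was 0.265% and 0.362% of normalized counts in Etv3+/+, and all 3 Etv3-/- shares lay between these, the lowest at 0.279%. Without Npm1 it was 0.194% and 0.177% against 0.230%, 0.223% and 0.218%, which do not overlap. Leaving out Npm1 was not planned beforehand, and this separation was not tested. In such bulk samples a larger share of cells with these transcripts and more RNA per cell cannot be told apart.

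Genes of 40S assembly ranged from level to about doubled. This group covers the small subunit processome, the large particle that folds and cuts the precursor, and later 40S factors. Wdr43, an early processome subunit and its most abundant member here, stood at 5272 and 6732 normalized counts in Etv3+/+ and at 7056, 8346 and 4733 in Etv3-/-, with Etv3-/- replicate 3 below both Etv3+/+ libraries. Nob1 (chromosome 8, 107412486 to 107425051), the endonuclease that makes the final cut of 18S ribosomal RNA, stood at 1152 and 1008 against 2212, 1687 and 1573, a fitted 1.67-fold (1.09 to 2.57, limma adjusted p = 0.212). With Bysl, Rrp12 and Nob1, the groups were apart for Tsr1, a late 40S factor, Rrp9, a protein of the U3 snoRNP, and Nop14. That made 6 of 13, 46.2%, where the background was 16.7% of tested genes. The other 7, Wdr43, Wdr75, Utp4, Utp15, Heatr1, Utp20 and Ltv1, overlapped. Utp4, Utp15, Heatr1, Wdr43 and Wdr75 belong to the same early complex of the processome. None of its 5 subunits on this list had groups apart, a number of genes too small to set against the background share. Of the 13 genes 0 passed in limma (3 at an unadjusted p under 0.05) or edgeR and 2, Bysl and Rrp12, in DESeq2, and the median log2 fold change was 0.22.

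Genes of 60S assembly showed a similar mixture. In the PeBoW complex, which joins Pes1, Bop1 and Wdr12 for processing of the 28S and 5.8S precursors, Bop1 (chromosome 15, 76452989 to 76477277) stood at 2278 and 1948 normalized counts in Etv3+/+ and at 2699.7, 2939 and 3210.3 in Etv3-/-. Its log2 fold change was 0.48 (-0.03 to 0.99, limma adjusted p = 0.304). Wdr12 stood at 555 and 718 against 746, 1170.3 and 972 (log2 fold change 0.58, -0.18 to 1.35), and its groups were only just apart. Pes1 stood at 6014 and 4339 against 5349, 5388 and 6618, which overlap. The 3 subunits of this complex thus had log2 fold changes of 0.17 to 0.58, each with an interval that includes 0.

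Outside PeBoW, Rrp1, a paralogue of Rrp1b, was the most abundant 60S factor of the set. Rrp1 (chromosome 10, 78400384 to 78413043) stood at 11202 and 8177 normalized counts in Etv3+/+ and at 11541, 12362 and 14024 in Etv3-/-, and its lowest Etv3-/- value was 1.03 times the highest Etv3+/+ value. The log2 fold change was 0.40 (-0.11 to 0.90, limma adjusted p = 0.388), against 1.50 for Rrp1b. The difference between the paralogues was not tested. Wdr74, a 60S maturation factor, stood at 1825 and 1391 against 2463, 1926 and 2309 (log2 fold change 0.48, -0.10 to 1.06). The methyltransferase Nop2 and the factors Nop16, Rrs1, Nip7, Mrto4 and Ebna1bp2 overlapped between genotypes. Of the 9 genes 0 passed in limma (1 at an unadjusted p under 0.05) or edgeR and 1, Rrp1b, in DESeq2. Of these 9 genes 3, 33.3%, had all Etv3-/- values above, where the background was 16.7% of tested genes. The median log2 fold change was 0.35. The annotation holds 2 processed copies named after Mrto4, so its reads may be shared with them. Only copies that carry the gene's own symbol with the ending -ps were counted, so copies of other members may be missed.

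**Figure D3:**
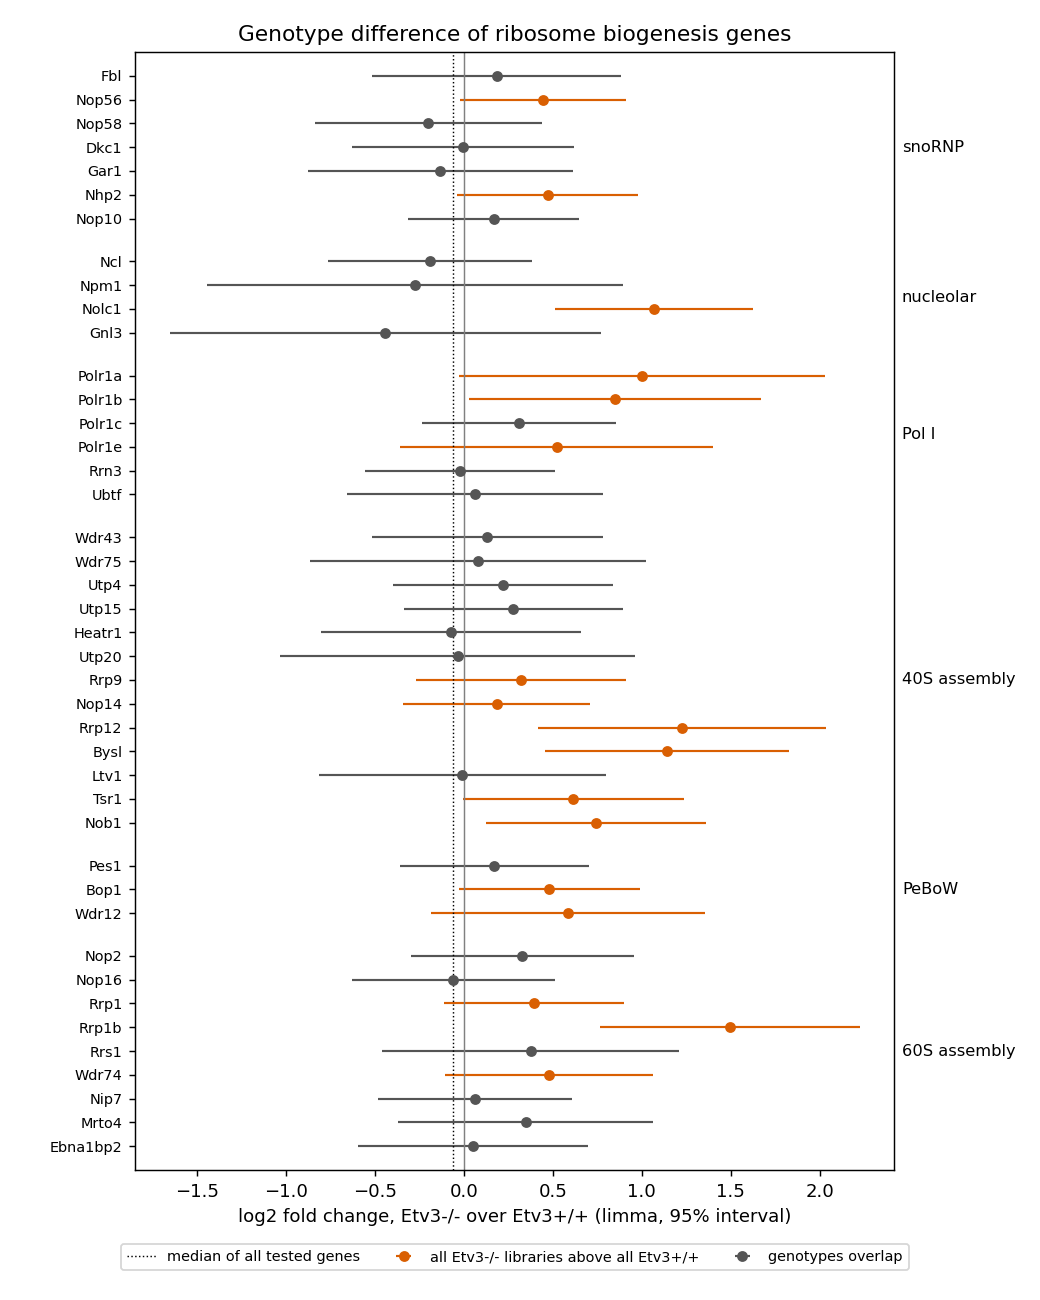
The log2 fold change of each of the 42 genes (horizontal axis, Etv3-/- over Etv3+/+) with its 95% limma interval; orange marks genes whose 3 Etv3-/- values all lie above both Etv3+/+ values, grey the others, and the dotted line is the median of all tested genes, -0.06. The intervals of Rrp1b, Rrp12, Bysl, Nolc1, Nob1 and Polr1b lie above 0, and none lies below.

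Levels differed widely between genes. Per kilobase of the principal annotated transcript, Npm1 had a mean of 44579 normalized counts in Etv3+/+ and 34181 in Etv3-/-, whereas Rrp1 had 4884 and 6372 and Nop56 3177 and 4306. Genes with separated groups were found at low and high levels per kilobase, among them Polr1a with 27.2 and 56.4, Rrp12 with 65.6 and 154, and Nolc1 with 322 and 672. Across the 42 genes the log2 fold change had a Spearman correlation of -0.33 with the log2 mean count and of 0.51 with the GC content of the transcript, where these were -0.00050 and 0.29 over the tested genes with a known GC content. These are descriptions across genes that share the same 5 libraries.

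The spread within a genotype also followed GC content. Across the 42 genes the difference between Etv3+/+ replicates 2 and 1 had a Spearman correlation of -0.37 with GC content, and that between Etv3-/- replicate 3 and the mean of replicates 1 and 2 one of 0.46. Over all tested genes the same values were -0.41 and 0.37, so the trend was general in these libraries. Npm1, at a GC content of 42.4%, was 1.53 higher on the log2 scale in Etv3+/+ replicate 2 than in replicate 1. Gnl3, at 44.7%, was 1.52 below the other Etv3-/- libraries in replicate 3 (difference -1.52). After a correction for GC content and length, the median member stood at 0.26 and 20 members had all Etv3-/- values above, against a background of 18.9% of tested genes in that fit.

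**Figure D4:**
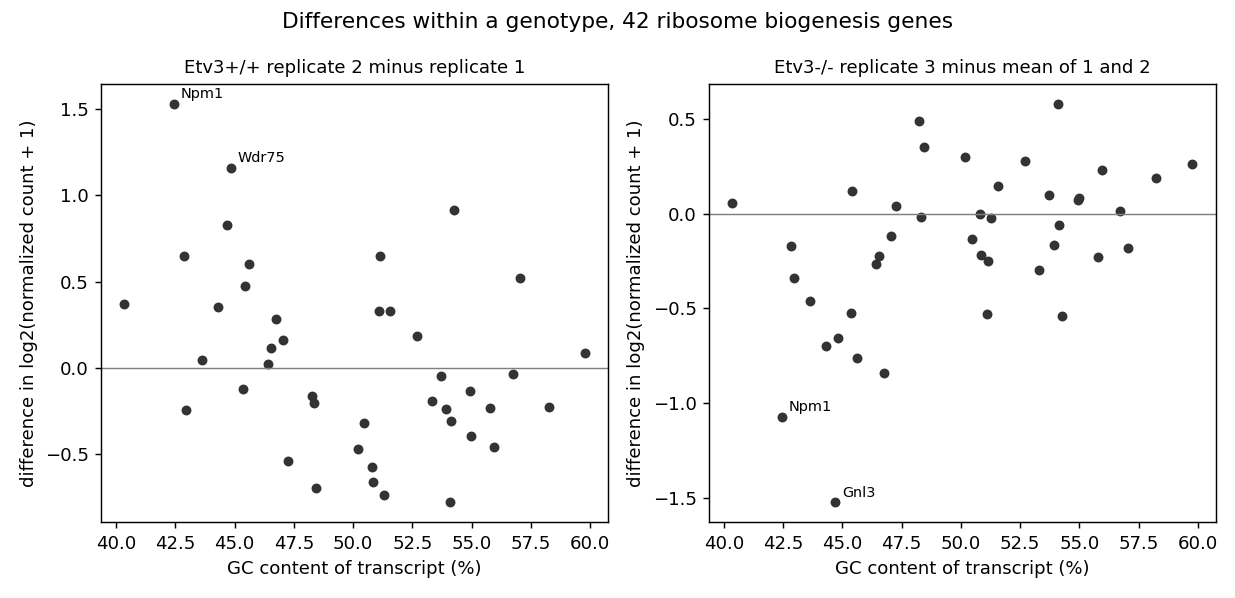
Each point is 1 of the 42 genes, placed by the GC content of its transcript (horizontal axis, %) and by a difference in log2(normalized count + 1) between libraries of the same genotype (vertical axes). Genes of low GC content tend to be higher in Etv3+/+ replicate 2 and lower in Etv3-/- replicate 3, with Npm1, Wdr75 and Gnl3 farthest from 0.

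Several members share features that the choice of genes did not use. The 42 genes lie on 18 chromosomes. Within 6 of them, Gnl3, Ncl, Nop56, Nop58, Tsr1 and Wdr43, the annotation places genes with small nucleolar RNA symbols (starting with Snor) on the same strand. Genes under other symbols, such as Gm25520 within Dkc1, were not classed, so other hosts may be missed. Of these 6, Nop56 and Tsr1 had all Etv3-/- values above, where the background was 16.7% of tested genes. Another gene overlaps 19 members, on the opposite strand for 16, among them Bysl with Ccnd3, Rrp1b with Hsf2bp and Nop56 with Idh3b. Where counting did not use strand, reads of such pairs cannot be told apart.

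The rest of the pathway lay nearer to the other genes, a difference that was not tested. In a list of 103 other tested ribosome biogenesis genes (assembly factors, other polymerase I factors, snoRNP assembly factors and the RNA exosome) 0 were called by limma (7 at an unadjusted p under 0.05) or edgeR and 2 by DESeq2, Nol6 and Wdr46. In this list 20 genes, 19.4%, had all Etv3-/- values above and 12, 11.7%, all below. The backgrounds were 16.7% and 19.3% of tested genes. The median log2 fold change was 0.036, with 59 of 103 positive, 57.3% against 46.3% of tested genes. Some of these genes stood lower in Etv3-/-, such as Utp18, a processome subunit, at 6378 and 8573 normalized counts in Etv3+/+ and 4425, 5456 and 2026 in Etv3-/- (log2 fold change -1.02, -1.96 to -0.07, limma adjusted p = 0.252). Other 40S factors had 11 of 35 genes with all Etv3-/- values above, 31.4%, and 5 below, 14.3% (median 0.14). Other 60S factors had 6 and 4 of 38, 15.8% and 10.5% (median 0.035). Among them Gtpbp4, a GTPase of early 60S particles, stood at 12031 and 23168 against 19037, 14719 and 12436. Other polymerase I factors had 2 and 1 of 9, 22.2% and 11.1% (median 0.027). Among them Polr1d, a subunit shared with polymerase III, stood at 3528 and 3958 against 5711, 3838 and 4739.6.

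The products and a known regulator of the pathway were compared in the same fit. Cytosolic ribosomal protein genes encode the proteins that the assembly factors join to ribosomal RNA. Of 78 such genes 0 were called by limma or edgeR. At an unadjusted limma p under 0.05 there were 26, 33.3%, against a background of 18%. DESeq2 called 10, or 12.8%, higher, where that tool called 4.6% of tested genes higher. All Etv3-/- values lay above for 38 of the 78 genes, 48.7%, and below for 0, where the backgrounds were 16.7% and 19.3% of tested genes. The median log2 fold change of these genes was 0.50. Their summed share was 1.52% and 2.02% of normalized counts in Etv3+/+ and 2.95%, 2.15% and 2.78% in Etv3-/-. Rpl4, with the highest mean of that list, stood at 54558 and 57344 against 83307, 69092 and 75222 normalized counts (log2 fold change 0.44, -0.07 to 0.95, limma adjusted p = 0.350). Whether this list differs from the biogenesis genes was not tested.

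Myc (chromosome 15, 61985391 to 61990374) stood at 294 and 383 normalized counts in Etv3+/+ and at 957, 795 and 1250.5 in Etv3-/-, a fitted 2.93-fold (1.66 to 5.16, limma adjusted p = 0.0849). Mxd1, whose product competes with MYC for the partner MAX, stood at 15839 and 12134 against 5478, 6182 and 8145, a log2 fold change of -1.09 (-1.65 to -0.53, limma adjusted p = 0.0812). Both had groups apart in opposite directions, and neither passed in limma. DESeq2 called both (adjusted p = 0.00146 for Myc and 0.00277 for Mxd1). Mxd1 also passed in limma with the replicate block (adjusted p = 0.0349), after the GC and length correction (adjusted p = 0.0360) and with both together (adjusted p = 0.0497), which with DESeq2 makes 4 of 20 alternatives. Of 11 genes of the MYC network 0 passed in limma or edgeR, with 4 at an unadjusted p under 0.05. All Etv3-/- values lay above for 2, 18.2%, and below for 3, 27.3%, where the backgrounds were 16.7% and 19.3%.

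**Figure D5:**
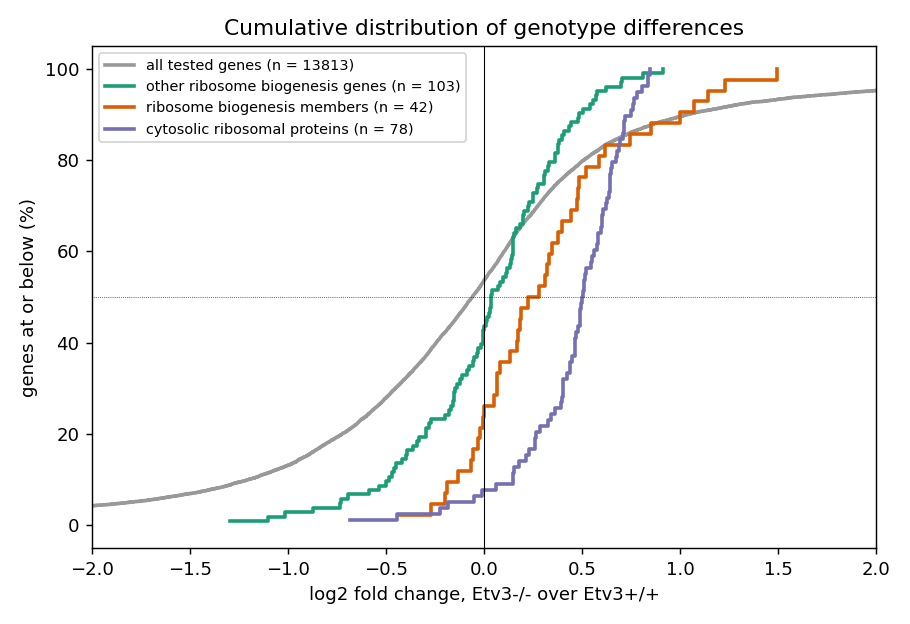
Cumulative distribution of the log2 fold change (horizontal axis, cut at -2 and 2) for the 42 members, 103 other ribosome biogenesis genes, 78 cytosolic ribosomal protein genes and all 13813 tested genes (vertical axis, % of genes at or below). The medians are 0.25 for the members, 0.036 for the other biogenesis genes, 0.50 for the ribosomal protein genes and -0.06 for all tested genes.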

How the data were processed

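Per the labels' protocols, SMART-Seq libraries for low RNA input were made from 2 Etv3+/+ and 3 Etv3-/- samples of sorted dendritic cells. The authors deposited normalized counts, a signal in which each gene's read count is divided by a library factor. DESeq2 1.26.0, STAR 2.7.3a, Trimmomatic 0.36, Subread 1.6.3, featureCounts and build mm10 are named, without roles, per the submitters' processing notes. The annotation and strand setting they used are not given. Dividing by the smallest step of each library gave whole reads (within 0.1) for 100% of values. On those reads edgeR called 158 genes.

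The 13813 genes that reached 10 normalized counts in 2 or more libraries were tested with limma 3.58.1 in R 4.3.3 (lmFit, eBayes with trend) on log2(normalized count + 1), which understates changes of low genes. The test was two-sided with Benjamini-Hochberg adjustment over all tested genes and a threshold of 0.05. The procedure was tested on simulated data in 3 runs. On average it recovered 10% of 2-fold, 51.3% of 4-fold, 68% of 8-fold and 78% of 16-fold changes, with 6 false calls per run. The simulated counts were drawn independently for each gene, without the GC trend of the real libraries. The number of false calls in the real data may therefore differ. Alternative settings changed the pseudocount, the filter, the scaling or limma's options, used edgeR 4.0.16 or DESeq2 1.42.0 on recovered reads, or added a replicate block, a local regression on GC content and length, or left out each library in turn. The counts of separated groups under other scalings were added after seeing the data. Members and lists were chosen with earlier results of these data known.

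Fully described genes were Etv3, Myc, and in each role group the member of highest mean and the 2 of largest absolute log2 fold change, with the 5 members of lowest p. Each other list gave its member of highest mean, since none passed; further members named, their library values and the printed promoters were chosen after their values were seen. Positions, GC content and lengths came from GENCODE M21 (GRCm38, the assembly of mm10), matched by symbol for 97.4% of rows. Protein sequences were not used here.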

Additional observations from a re-analysis of the deposited data

How the results depend on the processing

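Which of depth and replicate number limits these comparisons was not tested. Over 20 alternatives 0 members were called lower. Members called higher numbered 1 with the filter of 50 normalized counts in 3 libraries, 4 with DESeq2 and 1 with the GC and length correction, and 0 in each of the other 17. The members' median of 0.25 became 0.31 with TMM scaling, 0.34 with quantile scaling, 0.33 with edgeR, 0.30 with DESeq2 and 0.31 with the GC and length correction plus replicate block, and ran from 0.20 to 0.34 with single libraries left out. The median of other pathway genes, 0.036, became 0.098 with TMM scaling, 0.12 with quantile scaling, 0.099 with edgeR, 0.065 with DESeq2, 0.095 with the replicate block, 0.13 with the GC and length correction, 0.16 with that correction plus block and 0.098 without both libraries of strongest GC trend, and ran from 0.041 to 0.098 with single libraries left out. The median over all tested genes rose as well, from -0.06 in the main fit to 0.00085 with TMM scaling and 0.023 with quantile scaling. The rise of both medians under these scalings was therefore not particular to the lists. Members with all Etv3-/- values above numbered 17, and 19, 20 and 20 with TMM, quantile and GC scaling, where the background was 19.1%, 19.5% and 18.9%.

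Over all genes, 121 were higher and 44 lower. A pseudocount of 5 gave 70 lower, the filter of 50 gave 183 and 92, DESeq2 636 and 533, and the GC and length correction 243 and 113. limma with trend=FALSE gave 44 higher, and the fit without both libraries of strongest GC trend 6 and 1. With single libraries left out 0 to 73 were higher and 0 to 7 lower, and without Etv3-/- replicate 1 there were 0, with 1885 at an unadjusted p under 0.05. These fits have fewer samples, and without an Etv3+/+ library the lone one is assumed to vary like the others. The causes of the other shifts were not tested.

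The replicate block gave 118 genes lower, and 0 members were called (5 at an unadjusted p under 0.05). Deviations from the group mean correlated at -0.034 for replicate number 1 and 0.039 for number 2, which with 2 pairs do not show pairing. With the replicate block, signs turned for Npm1 (0.085), Gnl3 (0.068), Ubtf (-0.13) and Gtpbp4 (0.0038). With the GC and length correction they turned for Npm1 (0.088), Ubtf (-0.029), Gtpbp4 (0.49) and Nufip1 (0.15). With that correction plus replicate block the values were 0.31 for Npm1, 0.23 for Gnl3, -0.16 for Ubtf, 0.41 for Gtpbp4 and 0.089 for Nufip1. Without both libraries of strongest GC trend they were 0.85 for Npm1, 0.48 for Gnl3, -0.52 for Ubtf, -0.16 for Pes1, 0.48 for Gtpbp4 and 0.13 for Nufip1. With DESeq2 Mtrex was at -0.0098. With single libraries left out the range was -1.04 to 0.49 for Npm1, -0.85 to 0.068 for Gnl3, -0.32 to 0.45 for Ubtf, -0.063 to 0.41 for Pes1 and -0.044 to 0.37 for Wdr43. It was -0.61 to 0.33 for Gtpbp4, -0.41 to 0.097 for Nufip1, -0.39 to 0.39 for Mtrex and -0.42 to 0.20 for Maf1. None of these genes was called in any fit. Rrp1b kept a log2 fold change of 1.40 to 1.64 over the 20 alternatives, with adjusted p from 0.000312 to 0.214.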

Other observations

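The snoRNP assembly and RNA exosome lists, which are part of the 103 other pathway genes, and an RNA polymerase III list had 0 genes called by limma, edgeR or DESeq2. Over all tested genes 16.7% had all Etv3-/- values above and 19.3% all below. Of 8 tested snoRNP assembly factors 0 had all Etv3-/- values above and 1 below, with a median log2 fold change of -0.18 and 1 at an unadjusted p under 0.05. Nufip1, which bridges snoRNP assembly to the box C/D particle, stood at 2887 and 4090 normalized counts in Etv3+/+ and 2880, 3465 and 2948 in Etv3-/-. Of 13 tested RNA exosome genes 1 had all Etv3-/- values above and 1 below (median 0.071, 8 positive, 1 at an unadjusted p under 0.05). Mtrex, the helicase that feeds RNA to the nuclear exosome, stood at 3872 and 6651 against 4679, 6280.0 and 4450.2. Of 14 RNA polymerase III genes, which serve transfer RNA and 5S ribosomal RNA, 1 had all Etv3-/- values above and 2 below (median -0.066, 3 at an unadjusted p under 0.05). Maf1, the repressor of that polymerase, stood at 16799 and 10987 against 12656, 11963 and 13148.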
